A study of Mus musculus with 4 samples.

Results

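The canonical and related subunits of Polycomb repressive complex 1 (PRC1) were followed across cell density and genotype in mouse embryonic fibroblasts (MEFs). The set held 9 genes, Bmi1, Rnf2, Ring1, Cbx2, Cbx7, Cbx8, Pcgf2, Phc1 and Phc2, chosen by name from the array annotation. They were read by 17 of the 41174 probes on the array, and 27745 gene names were represented in all. MEFs from C57BL/6J mice, with the genotype field Lats2-/- (labelled KO) or Lats2+/+ (labelled WT), were grown to subconfluence for 48 h (low density) or for 3 to 5 days (high density). RNA of both densities of 1 genotype was hybridised together on a 2-colour Agilent array and again with the dyes exchanged, so the series held 4 arrays and 8 channels. The labels did not say whether the arrays of a dye swap shared RNA extracts. They were counted as repeats of 1 replicate per genotype and density, so the spread between them may be technical only. Nor did the labels say how many embryos or lines the cells came from, and time in culture changed together with density.

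PRC1 is a chromatin complex that places ubiquitin on histone H2A at developmental genes and compacts the chromatin there. Rnf2 (RING1B) and Ring1 (RING1A) are its ubiquitin ligases, and Bmi1 and Pcgf2 (MEL18) are the Polycomb group RING finger partners that activate them. Canonical complexes also hold a chromobox protein such as Cbx2, Cbx7 or Cbx8, which reads the trimethyl mark that PRC2 places on histone H3, and a polyhomeotic protein such as Phc1 or Phc2, which polymerises. In fibroblasts the complex is best known for silencing the Cdkn2a and Cdkn2b locus, which encodes inhibitors of the cell cycle.

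Before the PRC1 genes were read, the targeted gene was examined. Of 4 Lats2 probes, 3 were brighter on the arrays labelled KO at both densities, by 0.91 to 1.49 on the log2 scale, and 1 was dimmer, at -0.63 at low and -1.26 at high density. The labels did not say which part of the gene was removed, so genotype is given throughout as labelled. Both WT arrays lay on 1 slide and the KO arrays on 2 other slides scanned on other days, so slide and genotype cannot be told apart. The share of features well above background ranged from 52.8% to 67.7% per channel. Of the fibroblast markers, 8 of 8 were above background in 3 of the groups and 7 of 8 in WT cells at low density, where Pdgfra was not. Their summed intensity ranged from 193839 to 298761 at low density and from 387982 to 716012 at high density. Markers of other cell types were also read in each group. The number above background was at most 1 of 5 endothelial markers, 2 or 3 of 6 macrophage markers, 0 to 2 of 5 epithelial markers, 1 of 4 skeletal muscle markers and 2 of 3 neural markers. Ptprc, Emr1 and Itgam among the macrophage markers, Cdh1 among the epithelial ones, Myod1 and Myog in muscle and Sox2 in neural cells were above background in none. Some of the detected markers moved with the groups. Nes, an intermediate filament gene, was lower with the KO label, at -6.20 at low and -3.76 at high density. Tubb3, the other neural marker detected, gave -0.01 and 0.11. Of the macrophage markers, Cd14 gave -1.79 and -1.59, Cd68 -0.10 and -0.38 and Csf1r 0.43 at low density, from opposite signs in the 2 dyes. The epithelial marker Krt19 gave -1.94 at low and -1.95 at high density. The muscle marker Acta1 gave -0.08 and 1.004. With density, Krt19 gave -2.17 in WT and -2.19 in KO cells, Acta1 -2.14 and -1.06, Tubb3 -1.19 and -1.07 and Nes -2.20 and 0.24. Of the 8 fibroblast markers, 3 rose and 2 fell with density in WT cells, and 5 rose and 0 fell in KO cells, by the 2-fold rule given below. Of all genes, 9.41% rose and 6.08% fell in WT cells, and 7.15% rose and 3.87% fell in KO cells. The part of these marker changes in the PRC1 values was not tested. In such bulk samples, fewer cells of a type and less RNA per cell cannot be told apart.

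The promoters of the PRC1 genes were read as background to the values that follow. RefSeq promoter entries (GRCm38.p6) were matched for 8 of the 9 genes, with 10 entries in all because Phc2 had several. Cbx2 was not matched. The 250 bases before each start were searched on both strands for the E-box CACGTG, bound by Myc, Max and Mga among others, the core GGAATG recognised by TEAD factors, which are the partners of the Hippo effector YAP, and the E2F sites TTTCGCGC and TTTGGCGC. No match overlapped another. The E-box occurred in 4 of the 10 entries, 1 each for Bmi1, Cbx8, Pcgf2 and Phc2. It occurred in 6.02% of 32851 promoters and in 9.09% of the 15211 promoters with more CG pairs than the median of 6. Of the 10 entries, 8 were in that CG-rich class. Among the Phc2 entries only the most upstream held the E-box. Which Phc2 promoter serves the measured probe was not tested. The TEAD core was present before Bmi1 and Pcgf2, against 12.6% of all promoters, and neither E2F site was found, against 0.654%. The 4 promoters with the E-box are shown 5′ to 3′ with that of Cbx7, the gene above background only with the KO label, and capitals mark the E-box and the TEAD core.
Bmi1, chr2:18676768-18677017, plus strand: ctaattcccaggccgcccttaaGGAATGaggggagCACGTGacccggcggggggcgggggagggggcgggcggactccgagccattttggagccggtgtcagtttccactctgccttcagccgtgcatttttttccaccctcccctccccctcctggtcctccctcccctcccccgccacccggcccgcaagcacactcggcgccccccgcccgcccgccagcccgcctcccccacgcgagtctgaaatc
Pcgf2, chr11:97699649-97699898, minus strand: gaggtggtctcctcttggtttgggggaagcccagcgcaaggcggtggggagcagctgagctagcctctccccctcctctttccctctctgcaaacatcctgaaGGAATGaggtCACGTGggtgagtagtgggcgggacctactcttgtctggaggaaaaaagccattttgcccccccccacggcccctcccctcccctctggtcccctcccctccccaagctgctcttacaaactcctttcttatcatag
Cbx8, chr11:119040914-119041163, minus strand: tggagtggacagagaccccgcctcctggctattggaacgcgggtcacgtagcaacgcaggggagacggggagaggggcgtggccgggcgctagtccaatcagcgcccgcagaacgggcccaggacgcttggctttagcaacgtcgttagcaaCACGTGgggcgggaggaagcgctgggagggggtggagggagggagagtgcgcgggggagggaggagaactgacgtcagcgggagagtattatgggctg
Phc2, chr4:128654452-128654701, plus strand: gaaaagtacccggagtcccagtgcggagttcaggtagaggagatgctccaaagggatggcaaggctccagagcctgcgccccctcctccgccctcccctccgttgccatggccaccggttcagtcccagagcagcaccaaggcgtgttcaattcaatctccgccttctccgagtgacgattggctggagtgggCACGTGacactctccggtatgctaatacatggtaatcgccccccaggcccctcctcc
Cbx7, chr15:79932647-79932896, minus strand: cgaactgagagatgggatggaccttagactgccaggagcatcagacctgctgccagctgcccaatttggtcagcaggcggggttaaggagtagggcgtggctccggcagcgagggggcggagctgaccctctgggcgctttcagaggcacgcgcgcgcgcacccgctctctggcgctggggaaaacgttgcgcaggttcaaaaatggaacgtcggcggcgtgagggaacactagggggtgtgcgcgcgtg
These matches describe letters in the window and were not tested for binding.

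Values were normalised log2 intensities, which may be compared between channels for 1 probe but not between probes. The brightest probe stands for each gene, and the others are given beside it. A gene was called changed when its mean log2 difference was at least 1 in size (2-fold) and its sign agreed on both arrays of a density comparison or for both dyes of a genotype comparison. Under this rule 0 of 8 measured PRC1 genes changed with density in WT cells, where 15.5% of 14894 genes did. In KO cells 1 of 9 changed, Cbx7, against 11.0% of 15461 genes. The difference between the density effects of the genotypes passed the rule for 0 of 8, against 9.52% of 14177 genes. Between genotypes, 2 of 9 changed at low density (Cbx2 and Phc2, both lower on the arrays labelled KO), against 15.7% of 15272 genes. At high density 2 of 9 changed (Cbx7 higher and Phc2 lower), against 14.5% of 15633 genes. Cbx7 entered both genotype comparisons through its KO channels alone, so the filter fixed which side it could take. With a 1.4-fold threshold 3 of 8 passed for density in WT cells, where 41.1% of all genes did, and 4 of 9 in KO cells, against 36.7%. For the difference of the density effects 0 of 8 passed, against 31.4%, and for genotype 5 of 9 at low density, against 42.6%, and 5 of 9 at high density, against 39.4%. No count was read as particular to the PRC1 genes.

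**Figure D1:**
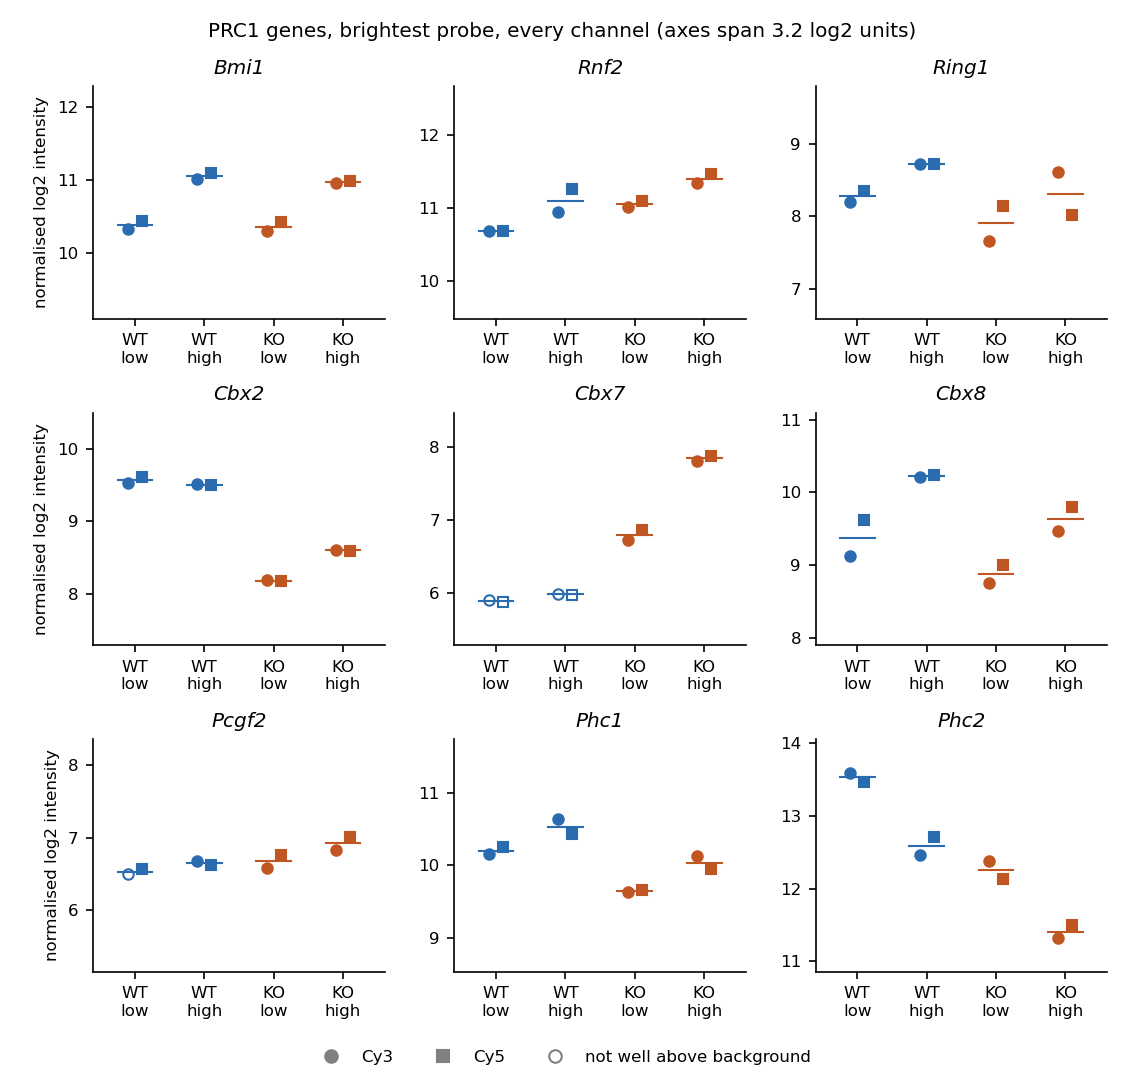
Normalised log2 intensity (vertical axis, own range for each gene) of the brightest probe of each PRC1 gene in all 8 channels. Circles are Cy3 and squares Cy5, blue is labelled WT and orange labelled KO, bars are means, and open symbols were not well above background. Phc2 was lower at high density and with the KO label, and Cbx7 was above background in KO channels only.

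The shift of the set as a whole was small and mostly upward with density. The median density difference was 0.37 in WT cells over 8 genes and 0.41 in KO cells over 9, against 0.06 over all genes in each genotype. With all probes of a gene averaged these medians were 0.21 and 0.28, and under median centring 0.18 and 0.30. The values lay above 0 for 6 of 8 genes in WT and 8 of 9 in KO cells, against 54.8% and 54.5% of all genes. The genotype differences had a median of -0.37 in low density cells and -0.40 in high density cells, against 0.03 over all genes. Both medians include Cbx7, whose WT channels were not above background. With averaged probes these 2 medians became -0.02 and 0.01, so the direction of the genotype shift rested on the choice of probe. Without KO replicate 1 or without WT replicate 1 they were -0.20 at low and -0.11 at high density.

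A shift with density shared by the genotypes was tested with limma on the 2 dye-swap means, 1 per genotype. Of 21541 probes 0 passed an adjusted p of 0.05, which corresponds to 0% of genes, and the smallest adjusted p was 0.0666 (limma, Benjamini-Hochberg over all probes). At an unadjusted p under 0.05 there were 6391 probes (29.7%), 4 of them among the 14 measured PRC1 probes. The methods' t-test gave 2373 probes before and 0 after adjustment. The 4 PRC1 probes belonged to Phc2, Cbx8, Bmi1 and Phc1, and are described below with the adjusted limma p. Each SE given below is the moderated SE of limma, which draws on the spread of all probes. The 2 genotypes stood in as the replicates, so the residual also held any genotype difference in the response.

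**Figure D2:**
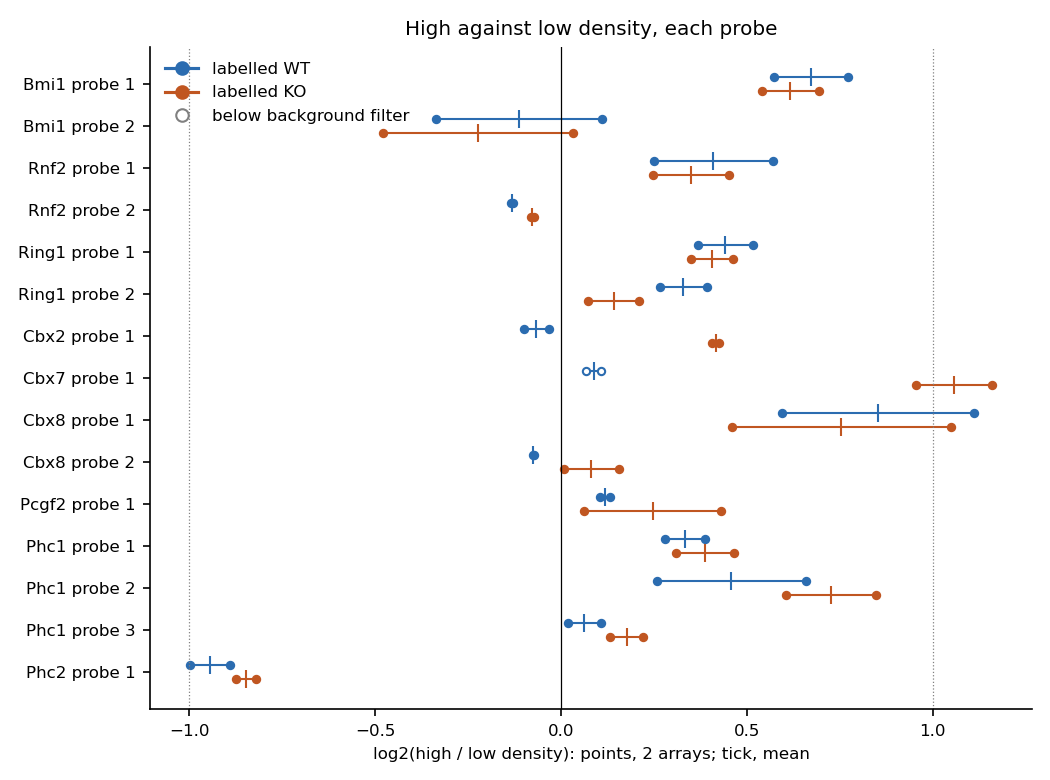
Log2 ratio of high to low density (horizontal axis) for each of the 15 PRC1 probes measured in at least 1 comparison, numbered from the brightest down. Points are the 2 arrays, ticks their mean, blue labelled WT and orange labelled KO, and dotted lines mark a 2-fold change. Phc2 lay at -0.94 in WT and -0.85 in KO, while Bmi1 probe 1 and Cbx8 probe 1 were the highest in WT.

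The catalytic subunits differed little. Rnf2, the main ligase for histone H2A in most cells, read 10.69 and 10.69 at low and 10.94 and 11.26 at high density in WT cells, and 11.02 and 11.09 at low and 11.34 and 11.47 at high density in KO cells. The density differences of this probe (chr1:153232075-153232134, mm8) were 0.41 in WT and 0.35 in KO, and 0.21 and 0.05 under median centring. The labelled KO exceeded WT by 0.37 at low and 0.31 at high density. At this probe no high density channel fell below a low density channel of the same genotype. Its second probe, 1492 bases further upstream, gave -0.13 and -0.08 for density, with every high density channel below those at low density of the same genotype, and 0.26 and 0.31 for genotype. The genotype difference of Rnf2 was thus similar at both probes, and the density difference was not.

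Ring1, the paralogous ligase, was read by a pair of probes 671 bases apart. The brighter (chr17:33631673-33631732) gave density differences of 0.44 in WT and 0.41 in KO, and the other 0.33 and 0.14. In WT cells the brighter probe read 8.20 and 8.35 at low and 8.72 and 8.72 at high density, with no overlap. In KO cells it read 7.67 and 8.15 at low and 8.02 and 8.61 at high density, and these ranges overlapped between the dyes. The genotype differences of the brighter probe were -0.37 at low density (-0.54 and -0.20 in the 2 dyes) and -0.40 at high density (-0.70 and -0.11), and those of the dimmer had opposite signs in the 2 dyes at both densities.

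Of the RING finger partners, Bmi1 was higher at high density at its brighter probe. Its brighter probe (chr2:18604114-18604173) read 10.32 and 10.44 at low and 11.01 and 11.10 at high density in WT cells, and 10.29 and 10.42 at low and 10.96 and 10.99 at high density in KO cells. All 4 high density channels were above all 4 low density channels. The difference was 0.67 in WT and 0.62 in KO, or 1.59-fold and 1.53-fold. Under median centring it was 0.48 in WT and 0.36 in KO. The mean over both genotypes was 0.65 ± 0.16 (moderated SE, n = 2 genotypes, limma adjusted p = 0.106). The genotype differences at this probe were -0.02 at low and -0.08 at high density. The other Bmi1 probe, 2681 bases upstream, gave -0.11 and -0.22 for density, with opposite signs on the arrays of each pair, and 0.39 and 0.28 for genotype. Pcgf2, which can take the place of Bmi1, was dim and above background in 7 of 8 channels. Its density differences were 0.12 in WT and 0.25 in KO (0.43 and 0.06 on the 2 KO arrays). Its genotype differences were 0.14 at low and 0.27 at high density (0.38 and 0.16 in the 2 dyes at high density). The density differences of this dim probe grew to 0.46 and 0.61 with the processed signals, and to 0.41 and 0.53 in the series matrix.

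The chromobox genes showed the most varied pattern. Cbx2, whose protein compacts nucleosomes, had 1 measured probe (chr11:118847139-118847198). It read 9.53 and 9.61 at low and 9.51 and 9.50 at high density in WT cells. In KO cells it read 8.19 and 8.18 at low and 8.61 and 8.59 at high density. All KO channels were below all WT channels. The genotype difference was -1.39 at low density (-1.35 and -1.43 in the 2 dyes), which passed the rule, and -0.90 at high density (-0.91 and -0.90), which did not. The density difference was -0.07 in WT and 0.42 in KO cells, and limma gave 0.18 ± 0.20 (moderated SE, n = 2 genotypes, adjusted p = 0.589). A second Cbx2 probe, 2035 bases upstream, was above background in 0 channels and had 1 array with an outlier flag.

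Cbx7, a chromobox protein known for extending the lifespan of fibroblasts through Cdkn2a, was above background in KO channels only. Its single probe (chr15:79743093-79743152) read 5.90 and 5.88 at low and 5.98 and 5.97 at high density in WT cells, where it was not well above background. In KO cells it read 6.72 and 6.86 at low and 7.81 and 7.88 at high density. When each WT channel was set to its dimmest detected probe, Cbx7 was at least 1.54-fold higher in KO cells at low density and at least 3.09-fold higher at high density. These bounds hold for that floor only, which is not a detection limit. Pcgf2, at 6.50 in the Cy3 channel of WT low density, was not above background there either. The bound at high density, 1.63 on the log2 scale, was past the 2-fold rule, and that at low density, 0.62, was not. Within KO cells the density difference was 1.06 (1.16 and 0.96 on the 2 arrays), or 2.08-fold, which passed the rule. It was 0.96 on KO replicate 2 alone, below the threshold, 1.78 with the processed signals and 1.71 in the series matrix. The WT density effect had no measured value, so a difference in response between the genotypes was not measured.

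Cbx8, another chromobox protein of canonical PRC1, lies close to Cbx2 on the opposite strand. Its brighter probe (chr11:118852429-118852488) read 9.13 and 9.62 at low and 10.22 and 10.24 at high density in WT cells, and 8.75 and 9.003 at low and 9.46 and 9.80 at high density in KO cells. Within each genotype the densities did not overlap. The density difference was 0.85 in WT (1.11 and 0.59 on the 2 arrays) and 0.75 in KO (1.05 and 0.46). The mean was 0.80 ± 0.16 (moderated SE, n = 2 genotypes, limma adjusted p = 0.0859). The other Cbx8 probe, 2124 bases upstream, gave density differences of -0.07 in WT and 0.08 in KO. The probes also took opposite sides between genotypes: the brighter gave -0.50 at low and -0.60 at high density, and the other 0.47 and 0.62. Each sign was the same in both dyes, so Cbx8 had no single genotype direction. The brighter probe carries the identifier of a cDNA clone in the annotation and the other that of the RefSeq transcript.

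Of the polyhomeotic genes, Phc2 was the only 1 of the 8 PRC1 genes measured in both genotypes whose brightest probe was below 0 for density in each. Its brighter probe (chr4:128254917-128254976) read 13.59 and 13.46 at low and 12.47 and 12.70 at high density in WT cells. In KO cells it read 12.38 and 12.14 at low and 11.31 and 11.50 at high density. The 4 groups did not overlap and stood in the order WT low, WT high, KO low and KO high. The lowest WT high channel, at 12.47, and the highest KO low channel, at 12.38, were close and lay on different slides. The genotype difference was -1.27 at low and -1.18 at high density, or 2.42-fold and 2.26-fold lower on the arrays labelled KO, and both passed the rule. When the arrays were not scaled to each other these values were -1.01 at low and -0.91 at high density, the latter below the threshold. Whether WT high stayed above KO low without that scaling was not examined. The density difference was -0.94 in WT and -0.85 in KO, just under the threshold. The mean was -0.90 ± 0.16 (moderated SE, n = 2 genotypes, limma adjusted p = 0.0812). Under median centring in place of loess the WT and KO values became -1.20 and -1.19. A second Phc2 probe, which lies further upstream (chr4:128207666-128207725), was not above background in any channel.

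Phc1, the paralogue of Phc2 with the same polymerising domain, was read by 3 probes that were all lower on the arrays labelled KO. The genotype differences were -0.55, -0.73 and -0.53 at low density and -0.50, -0.47 and -0.42 at high density, from the brightest to the dimmest probe. The brightest (chr6:122283899-122283958) read 10.15 and 10.25 at low and 10.64 and 10.43 at high density in WT cells, and 9.64 and 9.66 at low and 10.13 and 9.95 at high density in KO cells. At each density the genotypes did not overlap, and no value passed the 2-fold rule. The density differences of the 3 probes were 0.33, 0.46 and 0.06 in WT and 0.39, 0.73 and 0.18 in KO. Under median centring the brightest probe gave 0.15 in WT and 0.20 in KO. The second probe gave the lowest limma adjusted p of the gene, 0.129. Phc1 and Phc2 were therefore both lower with the KO label and differed in the sign of their density effect.

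**Figure D3:**
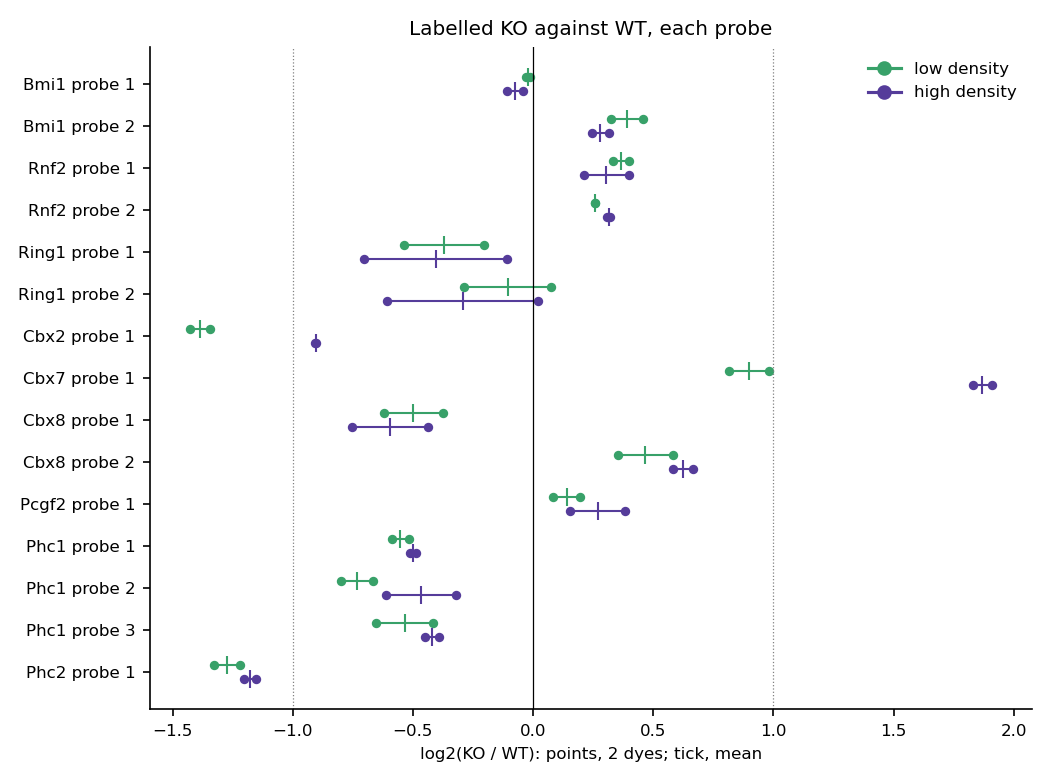
Log2 ratio of labelled KO to labelled WT (horizontal axis) for the same 15 probes. Points are the 2 dyes, ticks their mean, green low and purple high density, and dotted lines mark a 2-fold change. Cbx2 and Phc2 lay lowest, the Cbx7 values rest on WT channels that were not above background, so only their lower bounds in the text can be read, and the 2 Cbx8 probes fell on opposite sides of 0.

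Where a gene had several measured probes, the density effect followed their position. Bmi1, Cbx8, Phc1, Ring1 and Rnf2 each had at least 2. In 5 of 5 the probe nearest the 3′ end had the higher density value in both genotypes. The median step from the most upstream to the most downstream probe was 0.54 in WT and 0.55 in KO cells. The step was largest for Cbx8 in WT cells (0.93) and for Bmi1 in KO cells (0.84), and smallest for Ring1, at 0.11 and 0.27. The same step was present across the array: over 4556 genes with probes 200 to 100000 bases apart its median was 0.16 in WT and 0.18 in KO cells, and it was above 0 in 70.4% and 70.0% of genes. Labelling started from an oligo-dT primer at the 3′ end of the RNA, and in each of these genes except Phc1 the downstream probe was also the brightest. The part of this array-wide step in the density values of the PRC1 genes was not tested. Between genotypes the median step across the array was -0.02 at low and -0.01 at high density. In the 5 PRC1 genes it was -0.26 with 1 of 5 above 0 at low density, against 47.3% of genes, and -0.11 with 0 of 5 above 0 at high density, against 48.4%. Cbx8 reached -0.97 and -1.22.

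**Figure D4:**
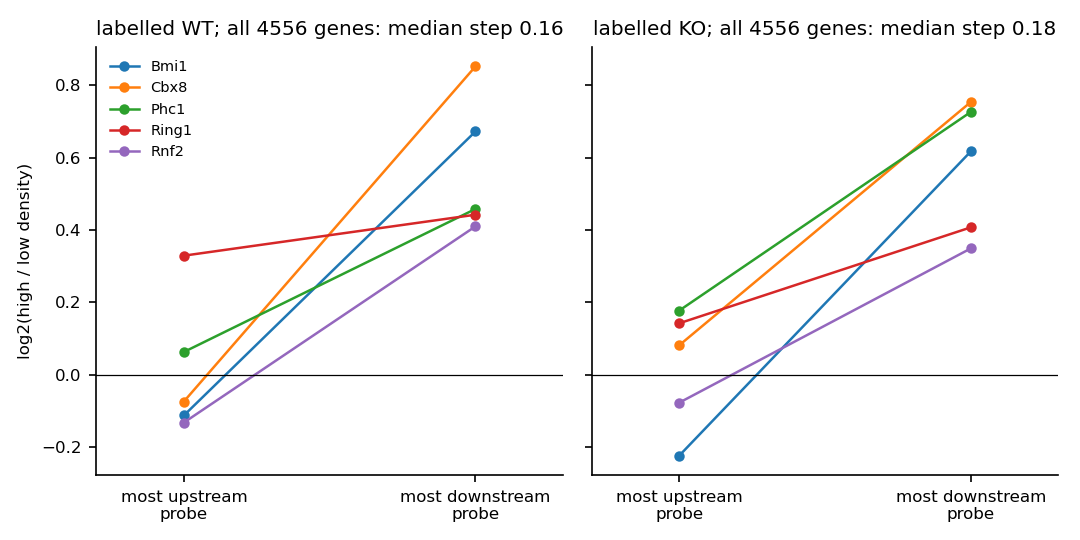
Log2 ratio of high to low density (vertical axis) at the most upstream and most downstream measured probe of the 5 PRC1 genes with several measured probes, in labelled WT (left) and labelled KO cells (right). Every line rose, and the titles give the median step over all 4556 genes with such a pair.

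Some other PRC1 subunits had density effects past 2-fold. Of 18 on the array, 16 were measured for density in WT and 17 in KO cells. In WT cells 1 rose and 1 fell, where 15.5% of all genes changed, and in KO cells 3 rose and 1 fell, where 11.0% did. Cbx6, a further chromobox gene, rose by 1.62 in both genotypes, or 3.07-fold. Pcgf5, a RING finger partner of variant PRC1, gave -1.44 in WT and -1.47 in KO cells, or 2.72-fold and 2.76-fold lower at high density. Rybp, which takes the place of the chromobox protein in variant complexes, rose by 1.59 in KO cells and gave 0.26 in WT. The difference, 1.33, passed the size rule, and with 1 replicate per group it could not be tested. Auts2, a partner of Pcgf5 complexes, rose by 2.13 in KO cells and was not above background in WT channels. With WT channels set to the floor used for Cbx7, or to its own signal where brighter, it was higher with the KO label. The bounds for that floor were at least 2.29-fold at low and at least 8.89-fold at high density. L3mbtl2, a subunit of the variant complex with Pcgf6 and Mga, was lower in KO cells at low density, at -1.01. The median density differences of these subunits were 0.03 in WT and 0.16 in KO cells, beside 0.37 over 8 and 0.41 over 9 of the PRC1 genes above. Of 5 genes that remove or help remove ubiquitin from histone H2A (Bap1, Asxl1, Asxl2, Usp16 and Mysm1), 0 passed the rule in any comparison, where 9.52% to 15.7% of all genes did, and a count of 0 of 5 is near that background. The largest of their values was the genotype difference of Asxl2 at high density, 0.90.

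**Figure D5:**
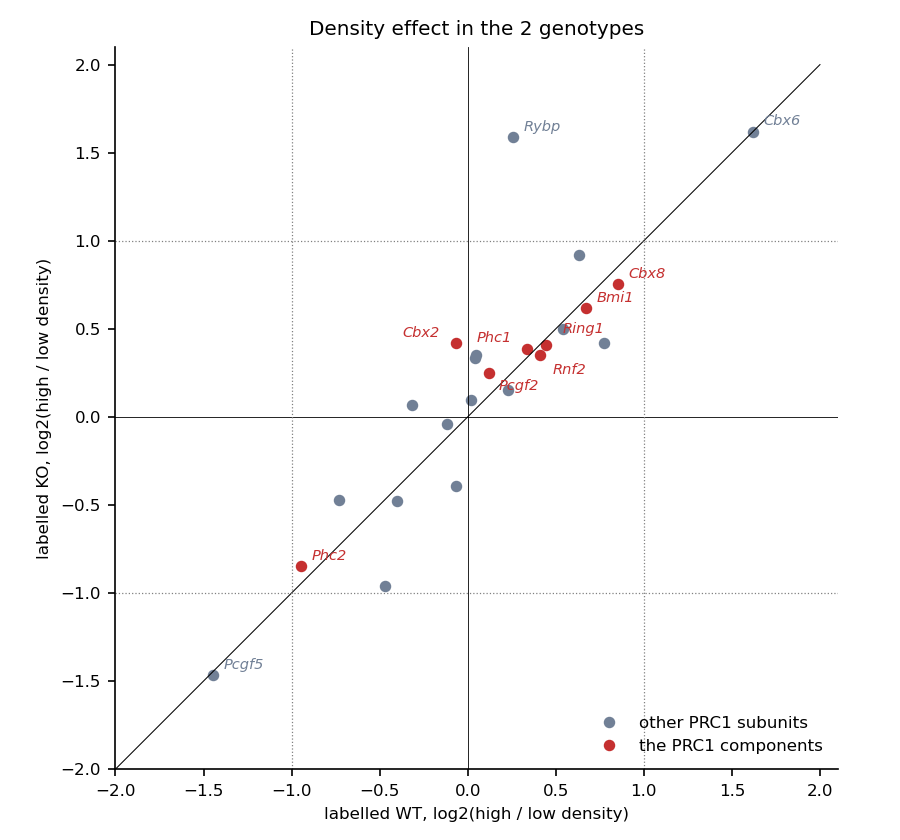
Density effect, log2 of high over low density, in labelled WT (horizontal axis) and labelled KO cells (vertical axis) for the 8 PRC1 genes measured in both (red) and other PRC1 subunits (grey). The diagonal marks equal effects and dotted lines a 2-fold change. Most genes lay near the diagonal, and Rybp lay above it, at 1.59 in KO and 0.26 in WT.

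Cdkn2a and Cdkn2b, whose silencing depends on PRC1 in fibroblasts, were read beside the subunits. Cdkn2a, which encodes p16 and p19, read 8.50 and 8.41 at low and 10.00 and 10.20 at high density in WT cells, and 8.26 and 8.27 at low and 8.76 and 8.79 at high density in KO cells. It rose by 1.64 (3.11-fold) with density in WT cells and gave 0.51 in KO cells, and the difference of -1.13 passed the size rule. Between genotypes it was -0.19 at low and -1.32 at high density. Cdkn2b, which encodes p15, was higher with the KO label by 2.22 at low and 1.85 at high density, and its density values were 0.93 and 0.56. The neighbouring genes thus took opposite sides between genotypes at high density.

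Proliferation moved with the same groups. Of 10 proliferation genes (Mki67, Top2a, Ccnb1, Ccna2, Cdc2a, Pcna, Mcm2, Mcm5, Aurkb and Bub1), 10 fell with density in WT cells, where 6.08% of all genes fell, from -1.06 for Ccnb1 to -2.004 for Top2a (median -1.61). In KO cells 1 fell, the replication gene Mcm2, at -1.40, against 3.87% of all genes (median -0.50). At low density 7 of the 10 were lower on the arrays labelled KO, against 8.35% of all genes (median -1.17), and Cbx2 and Phc2 were lower there too, at -1.39 and -1.27. At high density 1 was, Mcm2 at -1.15, against 7.78%, with a median of 0.24, while Phc2 was again lower, at -1.18, and Cbx2 gave -0.90. With density in KO cells Phc2 gave -0.85, close to its WT value of -0.94. The part of proliferation in the PRC1 values was not tested.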

How the data were processed

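RNA from subconfluent and dense MEFs labelled Lats2 KO or WT was compared on 4 dye-swapped Agilent arrays. Per the file headers, the authors extracted the scans with Agilent Feature Extraction 10.5.1.1, and the deposited files hold raw and processed spot intensity for Cy3 and Cy5. The deposited series matrix holds the log10 ratio of those signals, turned to high over low density. Raw intensity was corrected by normexp (offset 50) and normalised by loess, and channels were scaled between arrays by Aquantile, with R 4.3.3 and limma 3.58.1. The offset shrinks differences of dim probes. Control spots and outlier flags were left out, and features of 1 probe were averaged. A probe entered a comparison if the software marked it well above background on both arrays of at least 1 group. With 1 replicate per group, density effects inside 1 genotype, genotype effects at 1 density and their interaction left no residual spread to test against, so a size rule was used (2-fold, same sign on both arrays or dyes). Across probes the error of a mean, from the dye swap alone, was 0.0986 in WT and 0.143 in KO density values (SD, log2), and 0.113 and 0.149 in genotype values at low and high density. The smallest effects lie within it, and the number of arrays limits the precision. Alternatives were other background and scaling choices, the filter, the probe rule, a 1.4-fold threshold, leaving out each array, an intensity trend and the methods' t-test. All 9 genes and every probe of each are named, with the other PRC1 subunits, deubiquitination and proliferation genes that passed the size rule in some comparison, the largest value of a list with none, and Lats2, Cdkn2a and Cdkn2b. The members and lists were chosen with earlier results of these data known, and the step along the transcript was examined after its values were seen. Cell type markers are given by counts, and of those other than fibroblast markers the ones past 2-fold in some comparison are named with the other detected macrophage markers. The lists were other PRC1 subunits, H2A deubiquitination, proliferation and cell type markers. Symbols are those of the array and probe positions are of build mm8. Promoter sequences are of RefSeq (GRCm38.p6), where 1670 of 1670 overlapping windows on opposite strands were reverse complements, and positions were not converted. Scripts used Python 3.11.15, numpy 2.4.6, pandas 2.3.3 and matplotlib 3.10.9, and calls were tested on simulated data. A genotype difference over both densities was not tested.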

Additional observations from a re-analysis of the deposited data

Results flagged for a closer look

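Cbx2 was marked because its density effect took opposite signs in the genotypes: -0.03 and -0.10 on the arrays labelled WT, and 0.41 and 0.43 on those labelled KO. The WT mean, -0.07, was smaller in size than the dye-swap error of such a mean (0.0986, SD over probes). Under other settings it was larger in size than that error, at -0.22 with median centring, -0.15 in the series matrix and -0.11 with processed signals. The difference, 0.48, was above that of 84.4% of genes, and it was not tested, since each genotype had 1 replicate. Groups of 2 arrays were too small to look for outlying samples.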

How the results depend on the processing

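Of 43 values of PRC1 genes, 5 were called, and all 52 alternatives of these kept their sign. Many of the 52 could not have changed it. A call already needs the same sign on both arrays or dyes, so leaving out 1 array keeps that sign. The filter settings left the called values as they were or dropped them. Over all 43, 414 of 434 alternative values kept their sign, and many of these repeat the main value too. With a 1.4-fold threshold the genes called were 3 in WT and 4 in KO for density, 0 for their difference, and 5 at low and 5 at high density for genotype. Median centring called 1 in WT and 2 in KO, and gave medians of 0.18 and 0.30. Averaging probes gave medians of 0.21 in WT, 0.28 in KO, 0.0629 for their difference, -0.0156 at low and 0.0131 at high density. Without scaling between arrays, 3 genes were called at low and 1 at high density, and the genotype medians were -0.12 and -0.16. Processed signals and no background correction also called 3 at low density. The added gene was Cbx7, whose WT channels were not above background. Requiring every channel above background gave 1 call at high density (without Cbx7), -0.50 as the median at low density (without Cbx7 and Pcgf2) and -0.0349 for the difference of density effects (without Pcgf2), where no filter, which adds Cbx7, gave 0.0531. Processed signals gave density medians of 0.46 and 0.53, the series matrix 0.45 in KO, and no background correction 0.44 in KO.

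Leaving out 1 array gave density medians of 0.31 to 0.40 in WT, 0.43 to 0.46 in KO and -0.0329 to 0.12 for their difference, and genotype medians of -0.38 to -0.20 at low and -0.44 to -0.11 at high density. Density calls ranged from 0 to 1 in WT and from 0 to 2 in KO. Cbx7 lost its call without KO replicate 1, and Cbx8 passed the rule on 1 array, at 1.11 without WT replicate 2 and 1.05 without KO replicate 2. With an array left out, only 1 remained for that genotype. The genotype contrasts pair arrays by dye, so the matching array of the other genotype then dropped out too and 1 dye remained. Leaving out KO replicate 1 or WT replicate 1 thus gave the same genotype values. Median centring moved the median of all genes by -0.11 in WT and -0.14 in KO density values, and leaving out the scaling between arrays moved it by 0.24 in both genotype contrasts. In limma 0 PRC1 genes passed under every alternative run, although over all genes up to 280 did. No paired analysis was possible because the labels give the samples no replicate numbers (those used here are names in accession order), and each density ratio is already taken within an array.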
